A study of Mus musculus with 960 samples.

Results

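The 10 genes described here are the p53 family (Trp53, Trp63 and Trp73), the 2 inhibitors Mdm2 and Mdm4, the arrest and repair targets Cdkn1a, Ccng1 and Gadd45a, and the apoptosis targets Bbc3 and Bax. They were taken from a list of named genes, out of 22350 protein-coding genes of the mouse annotation (GENCODE M1), and every accessible window that overlapped one of them or lay within 20 kb of it was counted as theirs. This gave 52 of the 50000 windows in the deposited list, each 500 bp wide and centred on a peak summit. The data are ATAC-seq, in which the transposase Tn5 cuts and tags open chromatin, on fixed and antibody-stained cells sorted 1 per well. The cells came from a breast tumour of a PyMT mouse, in which the mammary promoter MMTV drives a viral oncogene. Mice of this strain were killed at an age of 3 months, and the labels name no animal. The 960 wells fill 10 plates, of which 8 carried the stain for EpCam, found on the surface of epithelial cells, and HIF1a, the part of hypoxia-inducible factor that oxygen controls. The other 2 plates carried the stain for EpCam and CD45, which marks cells derived from blood. No further treatment is given in the labels, and all wells share the tumour tissue and the EpCam stain.

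The deposited list was called on pooled cells and gives positions only, so it is 1 sample without replicates, scores or read counts. The depth behind a window is unknown, no spread between replicates can be given, and every comparison below is a description without a test. In a pool, a region open in few cells and a region weakly open in many cannot be told apart. Start sites of the epithelial markers Epcam, Krt8, Krt18 and Cdh1 held a window in 4 of 4 genes, against 0 of 5 blood-cell markers (Ptprc, Cd3e, Cd79a, Csf1r, Itgam) and 0 of 5 stromal and endothelial markers (Col1a1, Col3a1, Pdgfrb, Pecam1, Cdh5). Of all protein-coding genes 52.9% held a start-site window, and 17.6% of those without a CpG-rich start (defined below). Such a start was found at 1 of the epithelial markers and at none of the others. Away from their start sites, some of the others had windows within 20 kb, among them Cd79a with 10 and Pecam1 with 7. Ptprc, Itgam, Col3a1 and Pdgfrb had none.

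The transcription factor p53 is held at a low level by Mdm2, a ubiquitin ligase, and by Mdm4, which binds and masks its activation domain. DNA damage and other stresses release it, and it then binds response elements built from a pair of half-sites and switches on genes for cell cycle arrest, DNA repair, apoptosis and its own inhibitor Mdm2. The relatives p63 and p73 share its DNA-binding domain. p63 marks basal cells of stratified and glandular epithelia, the mammary gland included, and both relatives are made in long forms and in shorter ΔN forms that start from an internal promoter.

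The p53 response element was searched as 2 half-sites of 10 bases side by side, with at most 2 mismatches to the p53 consensus over 20 bases and with the C at position 4 and the G at position 7 of each half-site kept. The sequences below come from the mouse reference genome (NCBIM37, equal to mm9), each read 5′ to 3′ in the direction of the named gene, with the 20 matching bases in capitals. The first 3 are the matches that lay inside accessible windows, and the other 6 lay outside all windows. Of these 6, 5 are shown for their place near a start site or a window, and the Mdm4 match as an example far from both.
Cdkn1a far upstream: accgaAGGCAAGCCCGGGCAAGGCCggcag
Ccng1 promoter: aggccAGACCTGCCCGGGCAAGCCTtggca
Ccng1 intron: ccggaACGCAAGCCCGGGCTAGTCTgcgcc
Cdkn1a upstream start: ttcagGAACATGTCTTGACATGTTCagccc
Bax intron: cccccGGGCAGGCCCGGGCTTGTCGctggc
Trp73 internal start: tctccGGGCAAGCTGAGGCCTGCCCtgagt
Trp73 intron: gccctGGGCAAGTCTGGACCTGTCTgcttg
Mdm2 upstream: ggaggAAACATGTACAAACATGTCCaagca
Mdm4 intron: agatgGAACATGTCCAAACCTGTCTctctt

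Of the 10 genes, 8 had a start-site window, that is a window whose edge came no farther than 1 kb from the start of any of their transcripts, and 2, Trp63 and Trp73, had none. Over all protein-coding genes the share was 52.9% (11819 of 22350). The share depended on the bases around the start site. It was 83.0% among genes with a CpG-rich start (GC of at least 50% and an observed-to-expected CpG ratio of at least 0.6 over 500 bp) and 17.6% among the others. Of the 10 genes, 8 had a CpG-rich start, and 7 of these 8 held a start-site window, a share close to that of all CpG-rich genes. The exception was Trp73. Of the other 2 genes, Trp53 held start-site windows and Trp63 did not. Restricted to calls that kept 2 or more windows, 4 genes had a start-site window (Mdm2, Ccng1, Gadd45a and Bbc3), where 22.1% of all protein-coding genes had one.

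All 10 genes had at least 2 windows in or within 20 kb, where 59.7% of all protein-coding genes had more than 1 window and 72.4% had at least 1. The counts ran from 2 at Mdm4 to 11 at Bbc3, with a median of 5.50 over the 10 genes against a median of 2.00 over all genes. The number exceeded the median of all genes at 9 of the 10 and their upper quartile of 5.00 at 5, namely Trp73, Cdkn1a, Gadd45a, Bbc3 and Bax. Since Trp63 is 208340 bp long and Gadd45a 2362 bp, the counts were also taken per 10 kb of gene and flanks. On that scale the values ran from 0.201 windows per 10 kb at Trp63 to 2.26 at Bbc3, with a median of 0.292 over all genes, and 8 of the 10 lay above it. The 2 below were Trp63 and Mdm4, at 0.265.

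**Figure D1:**
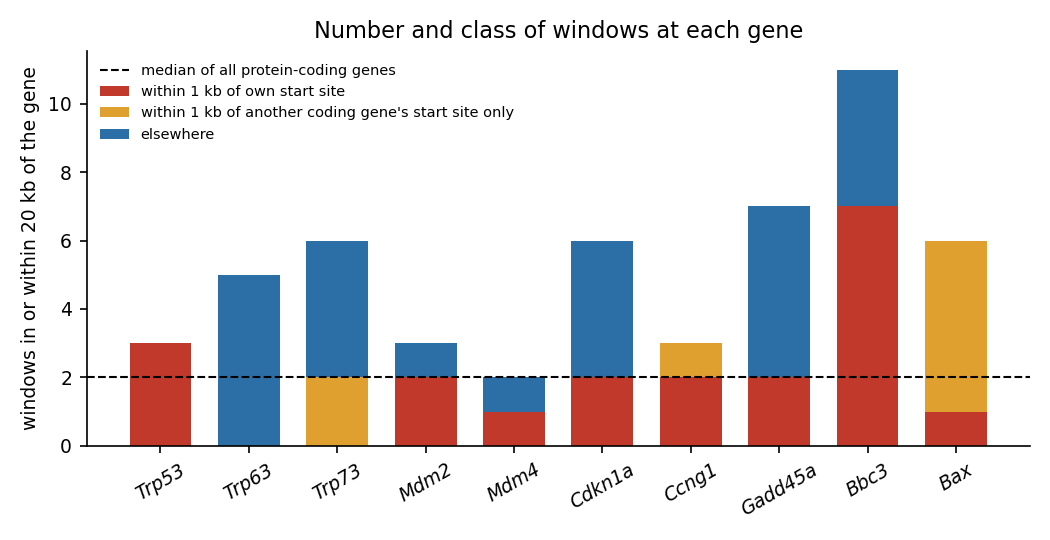
Windows in or within 20 kb of each gene, stacked by class: within 1 kb of the gene's own start site, within 1 kb of another coding gene's start site only, or elsewhere. The dashed line is the median of all protein-coding genes, 2.00 windows. Trp63 and Trp73 have no window at their own start sites, Bbc3 has 7, and 5 of the 6 windows counted for Bax lie at another gene's start site.

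By class, 20 of the 52 windows lay within 1 kb of a start site of the gene they were counted for, 8 lay only at a start site of another coding gene, and 24 lay away from coding start sites. Over the whole list 39.3% of windows were at a start site of a coding gene and 60.7% were not. The 52 windows came from 33 called peaks. A call can hold several summits, and 33 of the 52 windows (63.5%) came from calls that kept 2 or more windows, against 39.8% of the whole list.

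**Figure D2:**
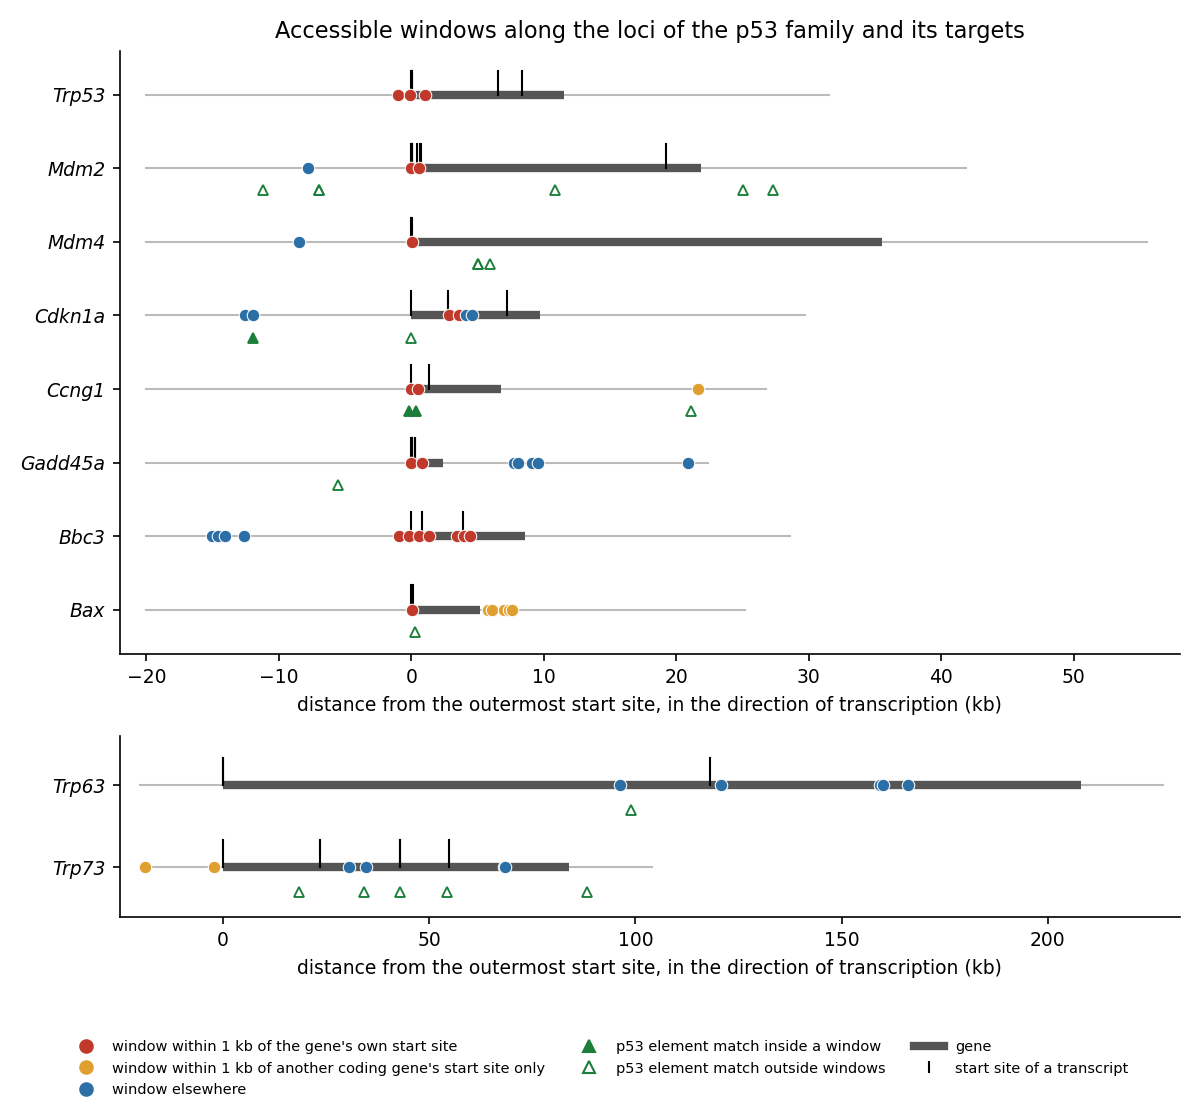
Positions of the 52 windows (circles, coloured by class) and of the 22 p53 element matches (triangles, filled when inside a window) along the 10 loci, in kb from the outermost annotated start site in the direction of transcription. Thick bars are genes, thin lines the 20 kb on each side, and ticks the annotated start sites. Only Cdkn1a and Ccng1 have filled triangles, and the windows of Trp63 all lie within the gene, between 96378 and 166209 bp from the outermost start site.

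Within the family, the 3 genes differed in where their windows lay. Trp53 (chr11:69393861-69405375, plus strand, ENSMUSG00000059552.6) is the damage-responsive tumour suppressor. Its 3 windows were all at its 5′ end, each from a call of its own, with summits at -1031, -93 and 1009 bp from the outermost start site. The central one (chr11:69393519-69394018) spanned the start site, the upstream one lay in the neighbouring gene Wrap53, and the downstream one lay in intron 1. Wrap53, a gene on the opposite strand that encodes a telomerase and Cajal body protein, starts 0.104 kb from a Trp53 start site, and all 3 windows were within 1 kb of one of its start sites too. Which of the 2 genes they belong to cannot be told apart. The 2 internal start sites, at 6532 and 8336 bp, had no window closer than 5273 bp, and no other window lay within 20 kb. The start site of Trp53 was below the CpG-rich limit, with a CpG ratio of 0.505 at a GC of 53.6%.

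Trp63 (chr16:25683849-25892188, plus strand, ENSMUSG00000022510.8), the gene of the basal-cell factor, had 5 windows, all of them in introns. The start sites of the long forms had no window within 58941 bp, counted to the nearest window edge. The internal start site of the ΔN form, at 118153 bp, had its nearest window edge 2253 bp away, and that window (chr16:25804255-25804754) had its summit 2502 bp downstream in the same intron 3. One window lay further upstream in intron 3 (chr16:25779978-25780477, summit at -21775 bp from the ΔN start). The other 3 were in intron 4, with summits 41165, 41913 and 48056 bp downstream of the ΔN start, the first 2 of them from a single call. Accessible chromatin was thus listed around and beyond the ΔN start and not at either promoter. Start sites here were poor in CpG, with ratios from 0.159 to 0.185.

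Trp73 (chr4:153430358-153514317, minus strand, ENSMUSG00000029026.9), the relative with roles in neural and ciliated cells, had 6 windows and none at its 5 start sites. The outermost start site was CpG-rich, with a ratio of 0.745 and a GC of 73.6%, and the edge of the nearest window was 1954 bp away. That window (chr4:153516271-153516770) was within 1 kb of a start site of Wdr8, a neighbour that starts 2164 bp from Trp73. The other upstream window, at -18873 bp, was within 1 kb of a start site of Tprgl. The remaining windows were a pair from 1 call in intron 4 (chr4:153445645-153446144 and chr4:153445913-153446412) and 2 single windows in intron 1, with summits 30594 and 34646 bp from the outermost start. The start sites of the shorter forms, at 43035 and 43041 bp, had no window edge within 8140 bp.

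The names of the called peaks are numbered in genome order, up to 109284, and 38400 calls (35.1% of the numbers) kept a window in the list. Missing numbers therefore mark calls that were made and not kept. Between the first and the last kept call of each locus, 19 calls were missing over the 10 genes, 5 at Trp63 and 7 at Trp73, and none at Trp53, Mdm4, Ccng1 or Bax. These counts leave out the stretches before the first and after the last kept call, which can reach beyond 20 kb. There, 1 missing call fell in chr11:69395121-69446019, which holds the 2 internal starts of Trp53. In chr1:134835944-134921674, which covers most of Mdm4, 3 were missing. Beside the kept calls of Ccng1 1 was missing, and beside those of Bax 1 on one side and 5 on the other. Of the 5 at Trp63, 1 fell in the stretch chr16:25780478-25804254 that holds the ΔN start, 1 in chr16:25804755-25842917 and 3 in chr16:25844166-25849808. Outside that count, 4 more fell before the first kept call, in the stretch chr16:25624909-25779977 that holds the long-form starts. In Trp73, 2 missing calls fell in the stretch chr4:153483974-153516270 with the outermost start and 3 in the stretch chr4:153446413-153479421 with the start sites of the shorter forms. Where in those stretches they were cannot be read from the list, so the absence of a window there is an absence from the kept windows, not from all calls.

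Both inhibitors had open promoters and few other windows. Mdm2 (chr10:117125944-117147814, minus strand, ENSMUSG00000020184.8) had 2 start-site windows from 1 call, one over the start site (chr10:117147607-117148106, summit at -0.042 kb) and one in intron 1 (chr10:117146996-117147495, summit at 0.569 kb). Intron 1 of Mdm2 holds the p53-responsive second promoter, known from earlier work, and 7 of its 8 annotated start sites lay within 0.736 kb of the outermost one. A single further window lay upstream, at -7771 bp. Mdm4 (chr1:134886422-134921943, minus strand, ENSMUSG00000054387.6) had 1 window over its start (chr1:134921675-134922174), with its summit 1 bp from a start site, and 1 at -8446 bp. It had the fewest windows of the 10 genes, and 40.3% of all protein-coding genes had fewer.

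Among the arrest and repair targets, Cdkn1a (chr17:29227924-29237667, plus strand, ENSMUSG00000023067.7) encodes p21, the inhibitor of cyclin-dependent kinases that carries out the p53-dependent arrest. It has 3 annotated start sites, and only the second, 2793 bp inside the outermost one, held windows. The first of these (chr17:29230490-29230989) had its summit 22 bp from that start, in the first exon, and the next (chr17:29231249-29231748) 781 bp from it, in intron 1. A pair from 1 call followed in the same intron, with summits 1308 and 1758 bp from the start, so that 4 windows followed each other. The first 2 of them were each alone in their call, and only the windows of the pair overlapped. The outermost start site had its nearest window edge 2566 bp away and the innermost 2427 bp away. A further pair from 1 call lay at -12570 and -11930 bp, at a start site of the long noncoding RNA gene Gm16197. The CpG ratio was 0.710 at the start site with windows and 0.0940 at the outermost one.

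Ccng1 (chr11:40562054-40568813, minus strand, ENSMUSG00000020326.7) encodes cyclin G1, a p53 target that recruits a phosphatase to Mdm2. Its 2 start-site windows, from 1 call, followed each other from the promoter (chr11:40568589-40569088, summit at -25 bp) into intron 1 (chr11:40568084-40568583, summit at 480 bp). The only other window, 21651 bp downstream of the start, was within 1 kb of start sites of Hmmr, which encodes a hyaluronan receptor, and Nudcd2.

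Gadd45a (chr6:66985090-66987451, minus strand, ENSMUSG00000036390.6), a damage-induced gene that acts in growth arrest and repair, is the shortest of the 10 at 2.36 kb and had 7 windows, more than at 85.4% of all protein-coding genes. Its 2 start-site windows came from 1 call, with summits 6 and 778 bp from the outermost start (chr6:66987196-66987695 and chr6:66986424-66986923), and both were also within 1 kb of a start site of the noncoding gene E230016M11Rik. The second of them had its summit in coding exon 3. The other 5 windows were all downstream. They formed 2 pairs, each from a single call, with summits 7781 and 8044 bp and 9140 and 9536 bp from the outermost start, and 1 window at 20889 bp that lay inside the gene Gng12. One of the second pair was within 1 kb of a U1 small nuclear RNA gene. Together with the promoter this placed the locus above 95.5% of protein-coding genes in windows per 10 kb, at 1.65.

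The apoptosis targets differed in their start-site windows, with 7 at Bbc3 and 1 at Bax. Bbc3 (chr7:16894965-16903554, plus strand, ENSMUSG00000002083.6) encodes PUMA, a BH3-only protein that sets off the mitochondrial pathway of cell death. It had 11 windows from 4 calls, more than at 95.2% of protein-coding genes, and 7 of them lay within 1 kb of a start site, more than at 99.7%. Of these 7, 4 came from a single call and lay around the start sites of the coding transcripts, with summits at -0.937, -0.168, 0.588 and 1.371 kb from the outermost start. The outermost start lay inside a window, and the other coding start was 1 bp from the nearest window edge. Another call with 3 summits, at 3448, 3976 and 4400 bp, lay around the start of a transcript not annotated as coding. Counted on coding transcripts alone, 4 windows were at start sites. Upstream of the gene lay a further call with 3 summits, at -15008, -14582 and -14036 bp, and a single window at -12608 bp. The 2 windows nearest the coding start sites were rich in GC, 70.4% and 74.4%, while the outermost of that call (chr7:16893779-16894278) had 50.4%. On both counts Bbc3 had the highest values of the 10 genes.

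Bax (chr7:52717065-52722268, minus strand, ENSMUSG00000003873.9), which encodes the protein that perforates the outer mitochondrial membrane, had 6 windows but only 1 at its own start (chr7:52721964-52722463, summit at 55 bp). The 5 others were downstream of the gene, between 5819 and 7613 bp from the start site, in a group of 2 and a group of 3 from 1 call each. All 5 were within 1 kb of a start site of Ftl1, the ferritin light chain gene, and the last was also near the microRNA gene AC151602.1. Without the windows at start sites of other coding genes, Bax had the single window of its promoter.

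Near the limits of the counting rule, the outermost windows counted were 18624 bp from Trp73 and 18278 bp from Gadd45a. The nearest windows not counted were 20003 bp from Gadd45a, 20326 bp from Trp73 and 20464 bp from Mdm4. For the start sites, the farthest window still counted was 781 bp from a Trp53 start, and the nearest one not counted was 1059 bp from a Cdkn1a start.

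Turning to the response elements, 3 of the 52 windows (5.77%) held a p53 element match, where 0.916% of all windows in the list did. Among all windows at start sites the share was 0.529%, and among those away from start sites 1.17%. Of the 20 windows at the genes' own start sites, 2 held one, and of the 24 away from start sites, 1 did. The 3 windows rest on 2 genes, and the counts are too small for an order between classes. Allowing 3 mismatches gave 9 of the 52 windows (17.3%), against 3.86% of the list. Allowing a spacer of 0 to 13 bases gave 7 (13.5%), against 9.27% of the list. The central 200 bp gave 1 (1.92%), against 0.418%. The 10 genes include well-known p53 targets, so a match in their loci is partly given by the choice of genes.

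Both start-site matches belonged to Ccng1, at -0.161 kb in the promoter (chr11:40568964-40568983) and at 0.365 kb in intron 1 (chr11:40568438-40568457). Each had 1 mismatch, and their distances from the nearest window summit were 0.136 and 0.115 kb. The third was the far upstream match of Cdkn1a (chr17:29215984-29216003), also with 1 mismatch, which lay exactly on a summit (a distance of 0 bp) at -11930 bp. Sequence before the start of Ccng1 (chr11:40568814-40569013, minus strand, 200 bases up to the base before the start site) and before the outermost start of Cdkn1a (chr17:29227724-29227923, plus strand, 200 bases) shows the contrast between a match inside a window and one outside, again with the match in capitals.
Ccng1 upstream stretch: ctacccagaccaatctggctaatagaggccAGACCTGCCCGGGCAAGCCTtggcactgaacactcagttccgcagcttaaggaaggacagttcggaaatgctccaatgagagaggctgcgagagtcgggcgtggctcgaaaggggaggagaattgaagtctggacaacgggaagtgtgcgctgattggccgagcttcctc
Cdkn1a upstream stretch: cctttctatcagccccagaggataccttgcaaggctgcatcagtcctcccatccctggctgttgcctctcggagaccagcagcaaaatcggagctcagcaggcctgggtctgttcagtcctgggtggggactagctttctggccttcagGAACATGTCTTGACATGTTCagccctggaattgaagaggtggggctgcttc

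The Cdkn1a match at -41 bp from the outermost start (chr17:29227873-29227892), with 1 mismatch, was 2598 bp from the nearest window. This start site lies in the stretch chr17:29216245-29230489, in which 2 calls were made and not kept. The window-bearing start site of Cdkn1a, 2793 bp further in, held no match with at most 2 mismatches. When 3 mismatches were allowed, the start-site window of Cdkn1a in intron 1 held matches. The start-site window of Mdm2 in intron 1 then held a match too. Under that looser setting 3.86% of all windows in the list held one.

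In all, the 10 loci with their flanks held 22 matches, 12 with 1 mismatch and 10 with 2, and none without a mismatch. Of the 22, 3 (13.6%) lay in a window. Windows covered 3.10% of these loci and 0.933% of the ungapped genome, and over the whole genome, with 1 match for every 99.6 kb, 1.73% of 25673 matches lay in a window. Some matches overlapped, as in Mdm4, where 2 of 3 shared a half-site, and in Mdm2, where 2 of 6 did. Trp53 and Bbc3 had no match under these settings, which says only that these letters were not found in the searched stretch. With 3 mismatches allowed, each had a match inside a promoter window, at -65 bp from a start of Trp53 and at -120 bp from a start of Bbc3.

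Of the 19 matches outside windows, 5 were within 600 bp of one. The closest was the Bax match in intron 1, 0.191 kb downstream of a start (chr7:52721944-52721963, 2 mismatches), which ended at the base next to the promoter window. A Trp73 match in intron 1 (chr4:153479980-153479999, 1 mismatch) was 0.059 kb from a window edge, and a Ccng1 match downstream of the gene was 0.246 kb from one. The 2 overlapping Mdm2 matches at -6988 and -6978 bp were 0.525 and 0.535 kb from the upstream window. The window width of 500 bp was set by the processing.

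A further 11 of the 19 were over 4 kb from any window. Among them were the Trp73 match at -57 bp from the start of the shorter forms (chr4:153471329-153471348, 2 mismatches), 8074 bp from the nearest window edge, and all 3 of Mdm4, in intron 1. One of the Mdm4 matches, 5897 bp downstream of a start (chr1:134916018-134916037, 1 mismatch), was 5638 bp from a window. The only match of Trp63 was in intron 3, 2388 bp from a window, and the only match of Gadd45a was at -5589 bp from the coding start.

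The windows at the genes' own start sites resembled start-site windows in general in their bases. Their median GC was 61.4% (range 50.4 to 74.4%, n = 20) against 61.2% over all start-site windows, and their median CpG ratio was 0.706 against 0.721. The 24 windows away from start sites had a median GC of 51.1% against 50.2% over the list, and a median CpG ratio of 0.378 against 0.233. The highest CpG ratio among them, 0.888, was in the last of the 4 windows that follow each other in Cdkn1a.

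Short motifs were searched on both strands of each window. TGANTCA (AP-1, the Jun and Fos factors) was in 7 of the 20 own start-site windows, from 6 genes, where 8.56% of all start-site windows had it. The windows were at Mdm2, Mdm4, Cdkn1a, Ccng1, Gadd45a and Bbc3, the last with 2. AGGGGGC (a core of the CTCF motif) was in 8 of the 20 against 20.6%, and GGGCGG (SP and KLF factors) in 11 of the 20 against 67.3%. CCGGAAG (ETS factors) was in 4 against 16.7%, CCAAT (NFY) in 8 against 42.3%, CACGTG (E-box) in 4 against 12.5%, and GGAATG (TEAD) in 5 against 19.2%. ACGTG or GCGTG, the core of the HIF motif, which overlaps the E-box, was in 15 of the 20, beside 75.2% of all start-site windows. Bbc3 alone gave 7 of the 20 windows, and neighbours from 1 call share surroundings. The windows with AGGGGGC were at Trp53, Mdm2, Cdkn1a and Bbc3, and those with CACGTG at Trp53, Bbc3 and Bax, in both cases most often at Bbc3.

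Away from start sites, the HIF core was in 17 of the 24 windows against 48.0% of the list, GGGCGG in 8 against 17.7%, and AGGGGGC in 5 against 8.93%. TGANTCA was in 5 of the 24 beside 18.9%, CCAAT in 9 beside 45.7%, GGAATG in 8 beside 28.4%, and CCGGAAG and CACGTG in 1 each beside 4.76% and 8.20%. Several of these windows are neighbours from 1 call and share bases or surroundings.

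**Figure D3:**
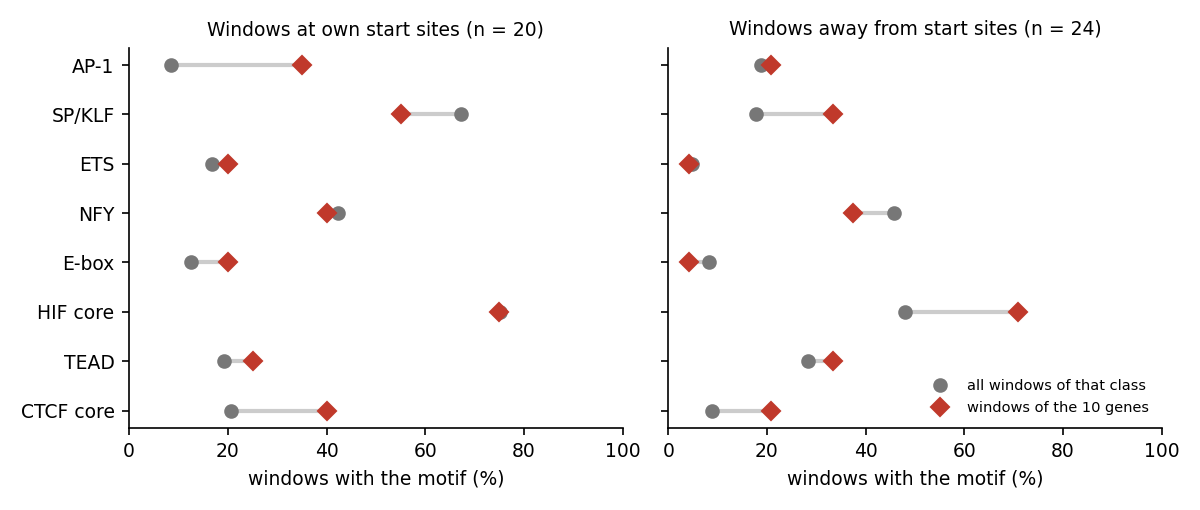
Share of windows with each of 8 short motifs, for windows at the own start sites of the 10 genes (left, n = 20) and away from coding start sites (right, n = 24), as diamonds, beside the share in all windows of the same class in the list, as circles. At start sites the widest gap is for AP-1 (7 of 20 windows against 8.56%), while the HIF core is at nearly the same share in both.

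The wider pathway was described with 79 genes in 7 groups, the 10 genes included. Of the 79, 71 (89.9%) had a start-site window, where 83.0% of genes with a CpG-rich start and 52.9% of all protein-coding genes had one, and 67 of the 79 had a CpG-rich start. Among those 67 the count was 64 (95.5%), and among the other 12 it was 7 (58.3%). Without the 10 genes it was 63 of 69.

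All 8 genes grouped under inhibitors and ubiquitin ligases held a start-site window. The group name is loose, since Cdkn2a acts on Mdm2 and inhibits p53 in no direct way. Cdkn2a, whose Arf product sequesters Mdm2, had 4, and the ubiquitin ligase gene Rchy1 and the deubiquitinase gene Usp7 had 3 each. Of the 16 kinases and cofactors upstream of p53, 14 held one. The most were at Ppp1r13l, the gene of the inhibitor iASPP, with 6, at the deacetylase gene Sirt1 with 5 and at Daxx with 4. The 2 without were Ppp1r13b, its relative ASPP1, and Prkdc, the catalytic subunit of the DNA-dependent protein kinase, which had no window within 20 kb at all.

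The arrest targets held a start-site window in 13 of 13 genes, with 4 at Ccng2, the second G-type cyclin, and 3 each at Gadd45b, of the Gadd45 family, and Plk2, a polo-like kinase. The apoptosis targets did so in 15 of 15, with Bbc3 in front, followed by Pidd1, a caspase-2 platform protein, with 4, and Bid, a BH3-only protein, with 2. Among the repair targets it was 7 of 8. Fancc, of the Fanconi anaemia pathway, had 9, and Ddb2, a sensor of ultraviolet damage, and Polk, a translesion polymerase, had 2 each, while Pcna, the polymerase clamp, had none and its nearest summit was 2465 bp from a start.

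The metabolism and stress targets had the lowest share of the target groups, 81.2% (13 of 16). They also had the fewest CpG-rich starts for their number, 10 of 16, against 12 of 13 arrest, 13 of 15 apoptosis and 8 of 8 repair targets. Over all protein-coding genes, 83.0% with a CpG-rich start and 17.6% without held a start-site window. Prkab1, a subunit of AMP-activated kinase, had 4 start-site windows, and Dram1, an autophagy gene, and Eda2r, a receptor of the TNF family, had 3 each. Cpt1c, a carnitine palmitoyltransferase, Sco2, an assembly factor of cytochrome c oxidase, and Gdf15 had none, and none of the 3 had a CpG-rich start. Eda2r and 2 further genes of the group, Ephx1 with 3 start-site windows and Tpp1 with 2, also lacked a CpG-rich start. Whether the bases at the start sites account for the share of this group was not tested. Gdf15, a secreted stress cytokine, had 8 windows within 20 kb all the same, with a summit 1280 bp from its start. The p53 family was the group with the lowest share, 1 of 3. Only 1 of these 3 genes, Trp73, had a CpG-rich start, and it held no start-site window. Trp53 held its 3 start-site windows without a CpG-rich start. In any case 3 genes are too few to rank against the other groups.

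**Figure D4:**
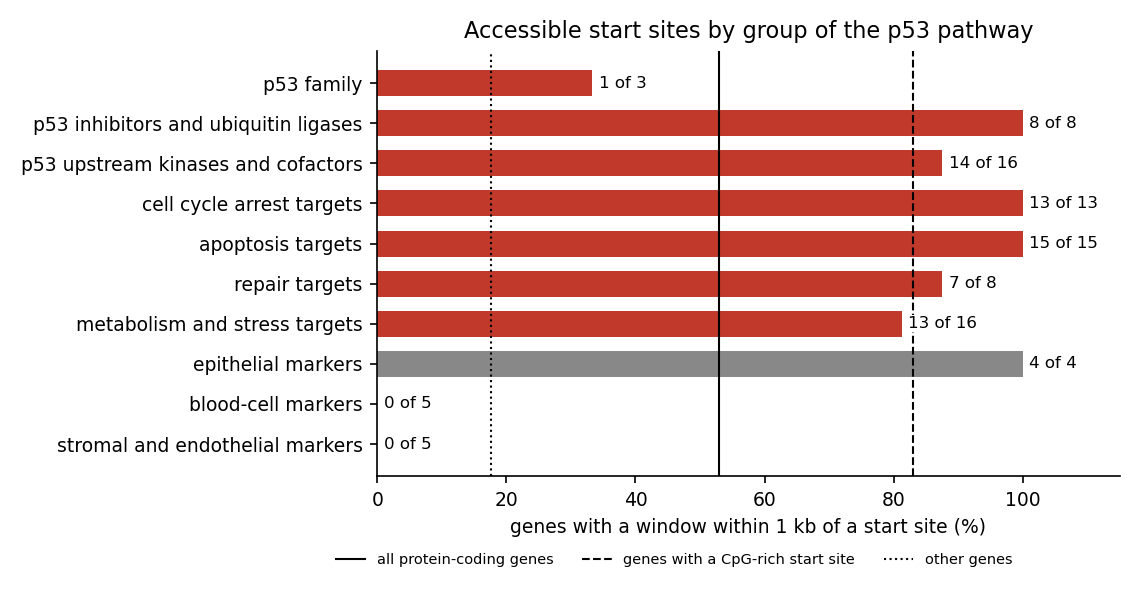
Share of genes with a start-site window (edge at most 1 kb from a transcript start) in each group of the pathway (red) and in the cell type marker lists (grey), with the count at each bar. Vertical lines mark all protein-coding genes (52.9%), genes with a CpG-rich start (83.0%) and other genes (17.6%). The arrest, apoptosis and inhibitor groups are complete, and the p53 family stands at 1 of 3.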

How the data were processed

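One deposited list was analysed. Its unit is other: the authors gave window positions and names only, with no score. According to the study's methods, reads were trimmed, mapped to mm9 with Bowtie2 2.1.0, filtered for unique mapping, and freed of duplicates (Picard 1.79) and mitochondrial reads. MACS2, whose version is not given in the sources used here, called summits on pooled cells, and the 50000 summits with the lowest q-values were widened to 500 bp. The submitters' processing notes list mm9 and hg19. Whether wells stained for CD45 entered the pool is not stated, no column gives HIF1a levels, and the precision of a window is unknown.

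Windows were set against GENCODE M1 on chromosomes 1 to 19 and X, using start sites of all transcripts and the nearest window edge (1 kb at start sites, 20 kb around genes). Exons and introns are those of the transcript with the longest coding sequence. The symbols Pidd1 and Tigar were matched through RefSeq synonyms. Named genes are the 10 genes, up to 3 genes per group with the most start-site windows, up to 3 without any, and each neighbour with a start site near a counted window. Python 3.11.15, numpy 2.4.6 and pysam 0.24.0 were used, and the element search was tested on simulated sequences. The genes and lists were chosen with earlier results of these data known. Protein sequences were not used here, so the planned comparison of the family's proteins was not made.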

Additional observations from a re-analysis of the deposited data

How the results depend on the processing

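The count of genes with a start-site window, 8 of 10, was 8 at 500 bp, 9 at 2 kb, 10 at 10 kb and 7 with only the outermost start site, and that of pathway genes stayed between 67 and 77 of 79 under those changes. With only calls that kept 2 or more windows, the counts were 4 of 10 and 32 of 79, against 22.1% of all protein-coding genes, and 33 windows were left of the 52. The windows numbered 29 in the gene bodies alone and 93 with 50 kb on each side, by construction of the stretch. The share of all protein-coding genes lay between 49.9% and 62.8% under the other start-site settings, and the median windows per gene of the 10 between 2.00 and 9.00. Alternatives chosen after seeing the data, start sites of coding transcripts and distance by summit, left 8 of 10 and 71 of 79. With 3 mismatches 9 member windows (17.3%) held an element (10 matches in windows), against 3.86% of all windows. With a spacer of 0 to 13 bases 7 (13.5%) did (9 matches), against 9.27%, and in the central 200 bp 1 (1.92%) did, against 0.418%. With 1 mismatch the 3 windows were kept, against 0.170%. No paired analysis was possible because the list is 1 pooled sample. The protein comparison was not run. Without read counts, how deep each window is and which cells carry it could not be examined.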
